A study of Rattus norvegicus with 24 samples.

Results

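The homeostatic microglia genes are a set of 9 genes tied to resting microglia as markers, receptors, transcription factors or ligand, several of which other cells also express, namely P2ry12, Tmem119, Gpr34, Aif1, Olfml3, Csf1r, Csf1, Spi1 and Sall1. Their levels were followed in the injured rat brain. They were matched by gene name, and all 9 were found among the 26641 named loci of the deposited count table, each with a mean level high enough to be tested. Only Spi1 had more than 1 locus, and its more abundant locus was used. The tissue came from adult male Sprague-Dawley rats at 3 months after a lateral fluid-percussion injury, a model of traumatic brain injury (TBI) in which a pulse of fluid strikes the dura through a hole in the skull. Sham-operated rats had the same anesthesia and craniectomy without the impact. Perilesional cortex and ipsilateral thalamus were taken from each rat, which gave 4 groups (TBI cortex, sham cortex, TBI thalamus and sham thalamus) of 6 rats each and 24 messenger RNA libraries. The injured rats were chosen from a larger cohort because magnetic resonance imaging showed a bright T2 rim around the cortical lesion, so they represent injured animals with a chronic inflammatory rim rather than the injury at large.

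Microglia are the resident macrophages of the brain parenchyma, and in the undisturbed brain they survey their surroundings with motile processes. Their survival depends on the receptor tyrosine kinase CSF1R, which binds the cytokines CSF1 and IL-34. The transcription factor PU.1, encoded by Spi1, is needed for the whole macrophage lineage, whereas SALL1 is largely restricted to microglia within that lineage, and TGF-beta from the surrounding tissue helps to maintain the resting profile. In single-cell work on damaged brain, this profile is often described as reduced in activated microglia. The present libraries are from bulk tissue, in which more cells of a type and more RNA per cell cannot be told apart.

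Libraries held 30568928 to 54608919 fragments assigned to loci, and the lowest count of any member in any library was 62 fragments, for Spi1 in 1 sham cortex. Levels are given as normalized counts, that is, fragments divided by a library size factor, and they were not compared between genes because gene length enters them. Differences are log2 differences of (normalized count + 1) with the standard error (SE), tested with limma and adjusted by the Benjamini-Hochberg method over all named loci tested, and a difference was called at an adjusted p below 0.05. Region labels fitted the tissue markers, since 7 of 7 cortex identity genes tested were lower and 8 of 8 thalamus identity genes were higher in the sham thalamus than in the sham cortex. Markers of the choroid plexus, the tissue inside the ventricles that makes cerebrospinal fluid, summed to more than 10000 normalized counts in 6 libraries (sham cortex rats 26 and 34, TBI cortex rat 45, sham thalamus rats 34 and 50, and TBI thalamus rat 45) against 740 to 2693 in the other 18. The counts of members are therefore also given without these 6 libraries.

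In the perilesional cortex, 8 of the 9 genes were called higher in TBI rats than in sham rats and none was lower, with log2 differences from 0.07 to 0.98 and a median of 0.61 against -0.01 over all 15493 loci tested. Of those loci, 14.3% were called higher and 14.9% lower. The ipsilateral thalamus again showed 8 of 9 called higher in TBI rats and none lower, with log2 differences from 0.58 to 1.25 and a median of 0.79 against -0.02 over 15564 loci, of which 14.5% were called higher and 20.9% lower. All 6 TBI values lay above all 6 sham values for 6 members in the cortex, where 7.02% of loci did so, and for 7 members in the thalamus, where 7.46% did so. Gpr34 was the member without a call in the cortex and Olfml3 the one without a call in the thalamus. Without the 6 choroid plexus-rich libraries, 7 members were called in the cortex, where P2ry12 lost its call at a log2 difference of 0.39 against 0.34 with them (adjusted p = 0.0632, limma), and all 9 in the thalamus.

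**Figure D1:**
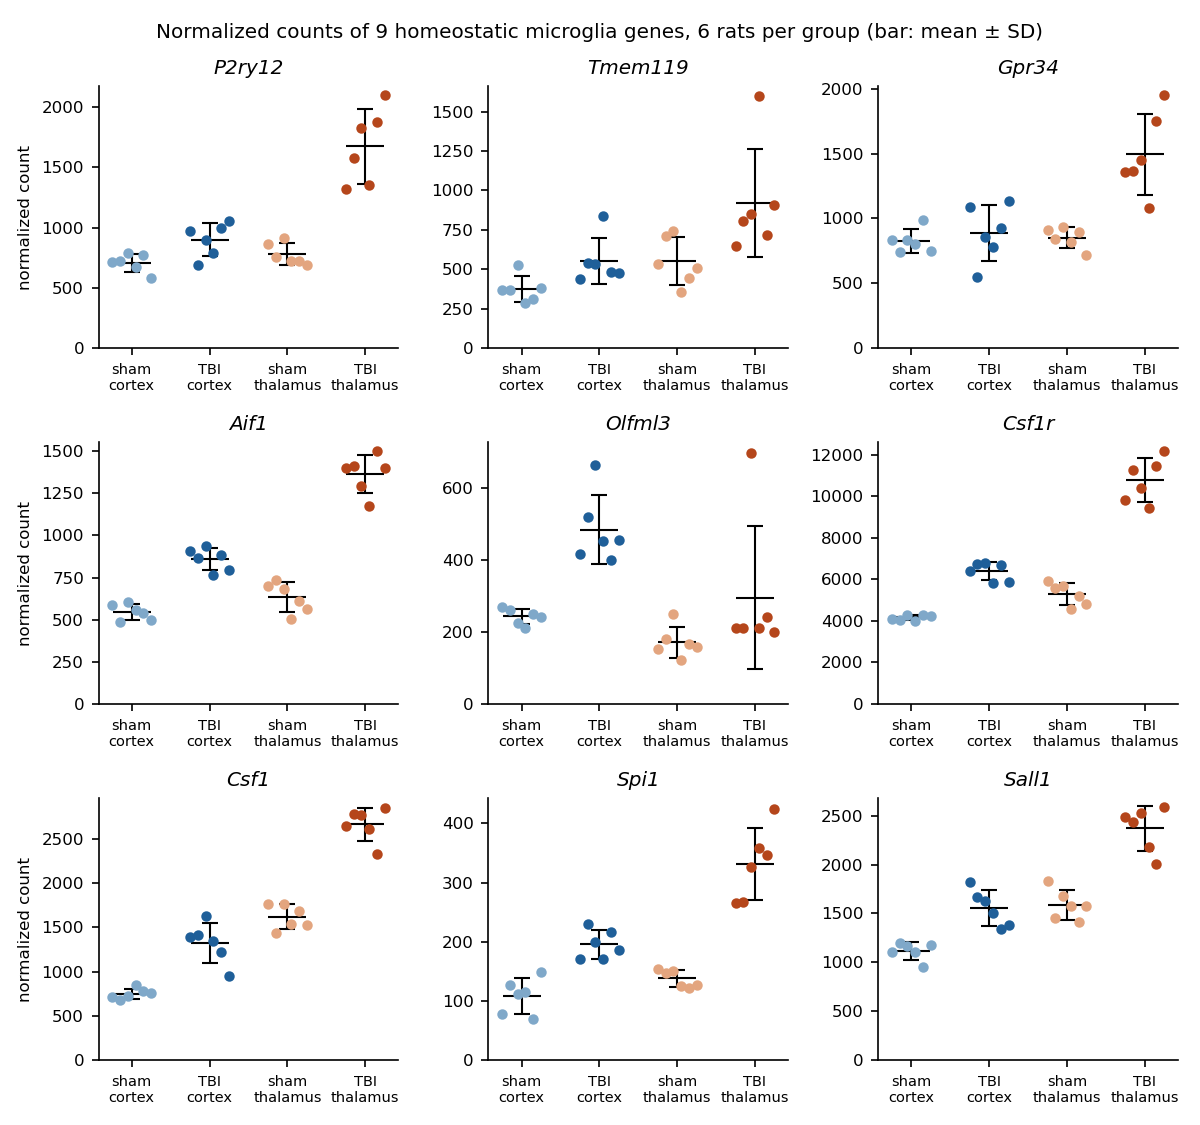
Normalized counts (y axis, from 0) of the 9 genes in each of the 24 libraries, with 1 panel per gene, 1 point per rat and the mean ± SD of 6 rats as a black bar. In the thalamus the TBI points of 7 genes lie wholly above the sham points, Gpr34 overlaps in the cortex, and 1 TBI thalamus library stands at 699 for Olfml3.

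P2ry12 encodes a purinergic receptor by which microglial processes sense ADP released from stressed cells. In the cortex it ranged from 578 to 793 normalized counts with a median of 718 in sham rats and from 689 to 1051 with a median of 937 in TBI rats. In the thalamus, sham rats spanned 691 to 916 with a median of 739 and TBI rats 1319 to 2099 with a median of 1699. Thus 4 of 6 injured cortices exceeded every sham cortex, whereas every injured thalamus exceeded every sham thalamus. The log2 difference was 0.34 in the cortex (SE 0.10, adjusted p = 0.0225, limma) and 1.09 in the thalamus (SE 0.11, adjusted p = 8.49e-06), or 1.26-fold and 2.13-fold. The cortical call was lost without TBI rat 22 (adjusted p = 0.0505).

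Gpr34 encodes a G protein-coupled receptor for lysophosphatidylserine that is strongly enriched in microglia. Sham cortices ranged from 744 to 989.7 normalized counts with a median of 819, and TBI cortices from 546 to 1131 with a median of 891. The injured cortices therefore lay on both sides of the sham range, with TBI rat 24 lowest and rat 63 highest, as for P2ry12. In the thalamus the sham values of 716 to 930.2, with a median of 868, did not overlap the TBI values of 1083 to 1952, with a median of 1409. The log2 difference was 0.07 in the cortex (95% confidence interval -0.23 to 0.37, adjusted p = 0.747, limma) and 0.79 in the thalamus (SE 0.12, adjusted p = 0.000183).

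Tmem119 encodes a membrane protein widely used to tell microglia from infiltrating macrophages. Its cortical values ran from 287 to 524 (median 368) in sham rats and from 436 to 838 (median 509) in TBI rats, and its thalamic values from 353 to 745 (median 522) and from 644 to 1597 (median 827). The groups overlapped in both regions, and the same injured animal, rat 52, was far above the others in both. Likewise sham rat 34 was the highest and sham rat 38 the lowest sham animal in both regions. The log2 difference was 0.56 in the cortex (SE 0.16, adjusted p = 0.0155, limma) and 0.72 in the thalamus (SE 0.21, adjusted p = 0.0170). Without rat 52 these were 0.43 and 0.55, and both remained called.

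Aif1 encodes IBA1, the actin-binding protein used to stain microglia and macrophages. The sham cortex held 485 to 602 normalized counts (median 548) and the TBI cortex 765 to 939 (median 875), and the sham thalamus held 506 to 737 (median 645) and the TBI thalamus 1173 to 1503 (median 1399). Injured and sham rats did not overlap in either region. The log2 difference was 0.66 in the cortex (SE 0.07, adjusted p = 2.20e-05, limma) and 1.11 in the thalamus (SE 0.09, adjusted p = 9.95e-07).

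Olfml3 encodes a secreted olfactomedin-like glycoprotein found in microglia and also in mesenchymal cells. In the cortex it rose from 211 to 269 normalized counts (median 246) in sham rats to 400 to 664 (median 455) in TBI rats, without overlap and with a log2 difference of 0.98 (SE 0.11, adjusted p = 3.13e-05, limma). In the thalamus the sham values were 122 to 252 (median 163), and 5 of the 6 TBI values lay between 201 and 243 while that of rat 45 was 699. The thalamic log2 difference was 0.64 (95% confidence interval 0.05 to 1.22) and was not called (adjusted p = 0.0837). It was 0.36 without rat 45 (adjusted p = 0.0784), 0.84 in edgeR (adjusted p = 0.0507), 0.64 and called in a joint fit of all 24 libraries (adjusted p = 0.0248), and 0.50 and called without the choroid plexus-rich libraries (adjusted p = 0.00934).

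Fibroblast and meningeal markers moved with Olfml3. All 10 of 10 such markers were called higher in the TBI cortex, led by the collagen gene Col3a1 (log2 difference 0.94) and the growth factor gene Igf2 (0.90), and their summed level was 16168 to 22599 in sham and 23544 to 58008 in TBI cortices. The share of all loci called higher was 14.3% in the cortex and 14.5% in the thalamus. In the thalamus 1 of 10 of these markers was called (Pdgfrb, 0.37). There the sum was 3488 to 3842 in 4 sham rats, 9604 and 13108 in sham rats 50 and 34, 4393 to 5201 in 5 TBI rats and 53621 in rat 45, whose choroid plexus sum was 270290. Perivascular and border macrophage markers were called higher for 6 of 11 in the cortex, led by Stab1 (0.85) and Pf4 (0.81), and for 1 of 10 in the thalamus (Siglec1, 0.61), where rat 45 again stood highest, with a sum of 6246 against 1586 to 2384 in the other 5. The part of these cells in the level of Olfml3 was not tested.

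**Figure D2:**
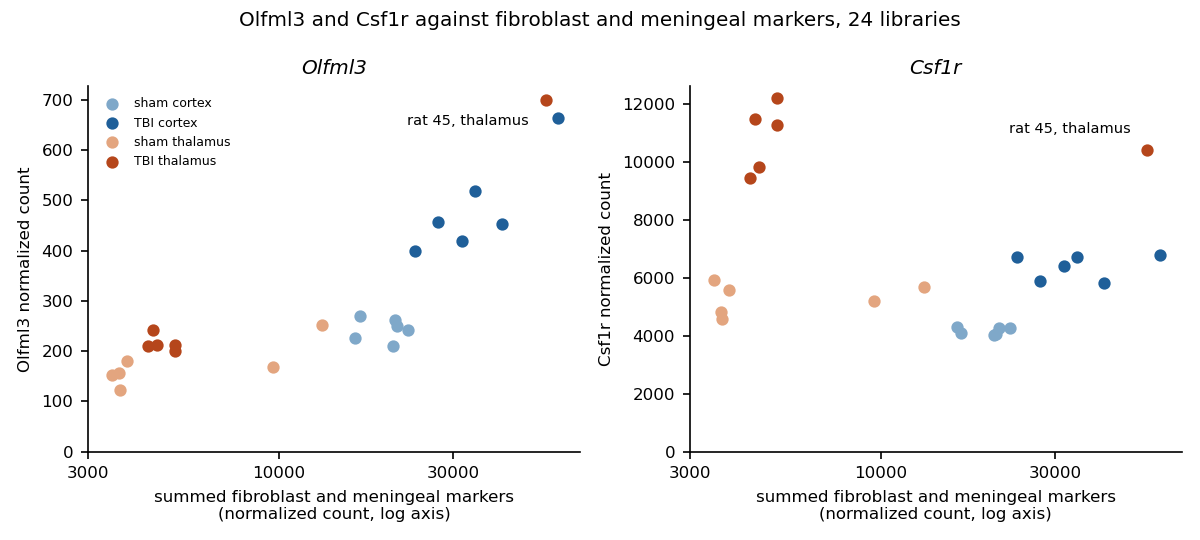
Normalized counts of Olfml3 (left) and Csf1r (right) against the summed normalized count of 10 fibroblast and meningeal markers (log x axis), 1 point per library, colored by group. Rat 45 stands at 699 for Olfml3 and 53621 for the marker sum in the thalamus, while its Csf1r level lies within the range of the other TBI thalami.

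Csf1 and Csf1r are a ligand and its receptor. Csf1 ranged from 673 to 845 normalized counts (median 744) in the sham cortex and from 948 to 1624 (median 1365) in the TBI cortex, and from 1431 to 1769 (median 1609.7) in the sham thalamus and from 2325 to 2845 (median 2712) in the TBI thalamus. The groups did not overlap in either region, and the log2 difference was 0.81 in the cortex (SE 0.10, adjusted p = 7.49e-05, limma) and 0.72 in the thalamus (SE 0.07, adjusted p = 2.32e-06). The coefficient of variation of Csf1r was 2.99% over the 6 sham cortices and 9.96% over the 6 sham thalami, where those of Csf1, Gpr34 and Sall1 were smaller (8.64%, 9.26% and 9.75%). It ranged from 4016 to 4304 normalized counts (median 4179.6) in the sham cortex and from 5823 to 6771 (median 6549.5) in the TBI cortex. In the thalamus it ranged from 4578 to 5912 (median 5388) in sham and from 9448 to 12202 (median 10833) in TBI rats. The log2 difference was 0.61 (SE 0.05, adjusted p = 2.02e-06) and 1.02 (SE 0.08, adjusted p = 4.68e-07), the latter a 2.03-fold level. Il34, the gene of the other ligand, picked out after its values were seen, was not called in the cortex (log2 difference 0.13, adjusted p = 0.251) or the thalamus (0.10, adjusted p = 0.489).

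Spi1 and Sall1 encode the transcription factors of the group. Spi1 ranged from 69.3 to 149 normalized counts (median 114) in the sham cortex, 170 to 230 (median 193) in the TBI cortex, 122 to 155 (median 138) in the sham thalamus and 265 to 425 (median 337) in the TBI thalamus. Its groups did not overlap in either region, and it had the largest thalamic log2 difference of the members, 1.25 (SE 0.12, adjusted p = 4.75e-06, limma) against 0.89 in the cortex (SE 0.17, adjusted p = 0.00127). When both Spi1 loci were summed, the differences were smaller, 0.68 in the cortex and 0.85 in the thalamus, and both remained called, but the thalamic difference was then below those of Aif1, P2ry12 and Csf1r. Sall1 ranged from 952 to 1196 (median 1138) in the sham cortex and from 1337 to 1818 (median 1566) in the TBI cortex, and from 1412 to 1835 (median 1574) in the sham thalamus and from 2005 to 2588 (median 2463) in the TBI thalamus. Its groups did not overlap either, and the log2 difference was 0.47 in the cortex (SE 0.08, adjusted p = 0.000598) and 0.58 in the thalamus (SE 0.08, adjusted p = 6.35e-05).

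PU.1 binds purine-rich DNA with the core GAGGAA, and the Csf1r promoter is a classic target. Promoter sequences of 250 bases before and 50 after the gene start were held for 3 of the 9 members in the RefSeq table used here (GRCr8), and these 3 are shown. Any part of PU.1 in the changes of the members was not tested. Capitals mark GAGGAA or its reverse complement TTCCTC. The entries are Csf1r at chr18:56834129-56834428 (plus strand), Gpr34 at chrX:11785787-11786086 (minus strand) and Olfml3 at chr2:193935445-193935744 (minus strand), each printed 5′ to 3′ on the gene's strand.
Csf1r: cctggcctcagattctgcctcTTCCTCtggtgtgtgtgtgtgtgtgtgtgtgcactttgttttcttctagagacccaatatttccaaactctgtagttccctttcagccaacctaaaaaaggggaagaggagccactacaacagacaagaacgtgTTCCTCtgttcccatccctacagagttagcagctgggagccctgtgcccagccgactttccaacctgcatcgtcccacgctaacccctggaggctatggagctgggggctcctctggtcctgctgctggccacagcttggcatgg
Gpr34: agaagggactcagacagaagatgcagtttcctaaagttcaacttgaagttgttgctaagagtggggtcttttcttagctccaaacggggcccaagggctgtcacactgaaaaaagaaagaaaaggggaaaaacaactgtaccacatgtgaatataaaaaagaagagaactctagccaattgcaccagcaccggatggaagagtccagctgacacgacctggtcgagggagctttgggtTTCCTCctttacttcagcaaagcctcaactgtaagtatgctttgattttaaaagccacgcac
Olfml3: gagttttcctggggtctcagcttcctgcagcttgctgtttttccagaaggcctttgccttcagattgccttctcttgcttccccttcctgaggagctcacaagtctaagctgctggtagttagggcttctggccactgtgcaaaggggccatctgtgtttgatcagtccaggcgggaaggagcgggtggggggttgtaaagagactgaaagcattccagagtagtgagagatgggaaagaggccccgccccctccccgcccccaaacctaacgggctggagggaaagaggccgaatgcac
The Csf1r window held 2 matches, at -229 and -95 from the gene start, and the Gpr34 window 1, at -12, all as TTCCTC. The Olfml3 window held none of these letters. The motif occurred in 9239 of all 33469 promoters in the table (27.6%). P2ry12, Tmem119, Sall1, Aif1, Spi1 and Csf1 had no entry.

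Whether the response to injury differed between the regions was tested as the interaction of injury and region over all 24 libraries. Of the 9 members, 4 were called with a larger log2 difference in the thalamus than in the cortex and none with a smaller one, while 2.72% of 15678 loci were called higher and 4.54% lower in this comparison. The excess in the thalamus was 0.75 for P2ry12 (SE 0.16, adjusted p = 0.00557, limma), 0.72 for Gpr34 (SE 0.20, adjusted p = 0.0273), 0.46 for Aif1 (SE 0.12, adjusted p = 0.0180) and 0.41 for Csf1r (SE 0.09, adjusted p = 0.00706). For Spi1 the difference between the regions was 0.36 (95% confidence interval -0.08 to 0.80), for Tmem119 0.17 (-0.42 to 0.75), for Sall1 0.11 (-0.13 to 0.34), for Csf1 -0.08 (-0.35 to 0.18) and for Olfml3 -0.34 (-0.98 to 0.31), none of them called. With the rat as a replicate block the same number of members, 4, was called. Without the 6 choroid plexus-rich libraries the 4 differences were 0.71, 0.76, 0.45 and 0.45 in the same order, but only that of Csf1r was called (adjusted p = 0.0426), with adjusted p = 0.0583, 0.128 and 0.0963 for the other 3.

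**Figure D3:**
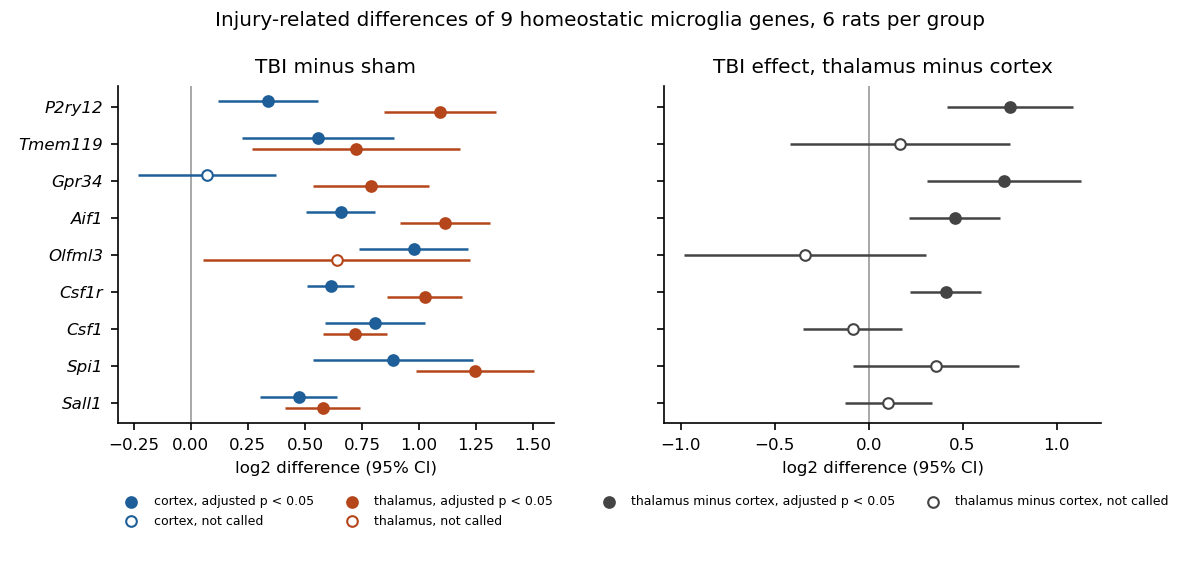
Log2 differences with 95% confidence intervals for the 9 genes, TBI minus sham in cortex and thalamus (left) and the injury effect in thalamus minus cortex (right), where filled points passed the adjusted p of 0.05 and open points did not. P2ry12, Gpr34, Aif1 and Csf1r are the filled points of the right panel, and Csf1 and Olfml3 lie left of 0.

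In sham rats the regions already differed for 5 members. Csf1 was 2.16-fold higher in the thalamus than in the cortex (log2 difference 1.11, SE 0.07, adjusted p = 8.77e-10, limma), without overlap. Tmem119 (0.54, adjusted p = 0.0145), Sall1 (0.50, adjusted p = 1.46e-05) and Csf1r (0.34, adjusted p = 0.000119) were also higher, and Olfml3 was lower (-0.53, adjusted p = 0.00338). These 4 higher and 1 lower stand beside 33.9% and 28.3% of the 15582 loci tested. P2ry12 (0.14), Gpr34 (0.05), Aif1 (0.21, adjusted p = 0.0631) and Spi1 (0.39, adjusted p = 0.0540) were not called, and Spi1 was called with the rat as a replicate block (adjusted p = 0.04845). Without sham rat 32 the call of Tmem119 was lost (adjusted p = 0.0537). In TBI rats 8 members were higher in the thalamus, with log2 differences from 0.61 for Sall1 to 1.02 for Csf1, and Olfml3 was lower (-0.87, adjusted p = 0.0112), against 31% and 26.5% of 15737 loci. Fibroblast and meningeal markers were lower in the thalamus for 10 of 10 in both sham and TBI rats (median log2 difference -2.22 and -2.76), and their part in the lower Olfml3 was not tested. Beside Csf1, the ligand gene Il34 was lower in the thalamus, by a log2 difference of -1.06 in sham rats (adjusted p = 5.55e-09) and -1.08 in TBI rats (adjusted p = 1.23e-06).

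Each other member was also expressed as a log2 ratio to Csf1r within the same library, which does not depend on the scaling between libraries. Of the 16 ratios (8 genes in 2 regions), 4 differed between TBI and sham rats in a two-sided exact permutation test over the 924 regroupings, after adjustment over the 16. The smallest p that the test can give is 0.00217. In the cortex, Gpr34 per Csf1r fell by 0.54 (from -2.34 ± 0.14 to -2.88 ± 0.43, SD, n = 6, adjusted p = 0.0433, exact permutation test), and 5 of 6 TBI values lay below every sham value. Olfml3 per Csf1r rose by 0.36 in the cortex (from -4.10 ± 0.14 to -3.73 ± 0.25, adjusted p = 0.0433, exact permutation test). In the thalamus, Sall1 per Csf1r fell by 0.45 (from -1.74 ± 0.16 to -2.18 ± 0.19, adjusted p = 0.0346, exact permutation test), with all TBI values below all sham values, and Csf1 per Csf1r fell by 0.30 (from -1.71 ± 0.14 to -2.01 ± 0.17, adjusted p = 0.0433). P2ry12 per Csf1r differed by -0.27 in the cortex (adjusted p = 0.119, exact permutation test) and 0.07 in the thalamus (adjusted p = 0.440), and Aif1 per Csf1r by 0.04 and 0.09 (adjusted p = 0.469 and 0.208). Leaving out single libraries left between 0 and 7 of the 16 called. Rat 45 decided the thalamic ratio of Olfml3, which was -0.39 with it (adjusted p = 0.328, exact permutation test) and -0.68 without it (adjusted p = 0.0346).

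**Figure D4:**
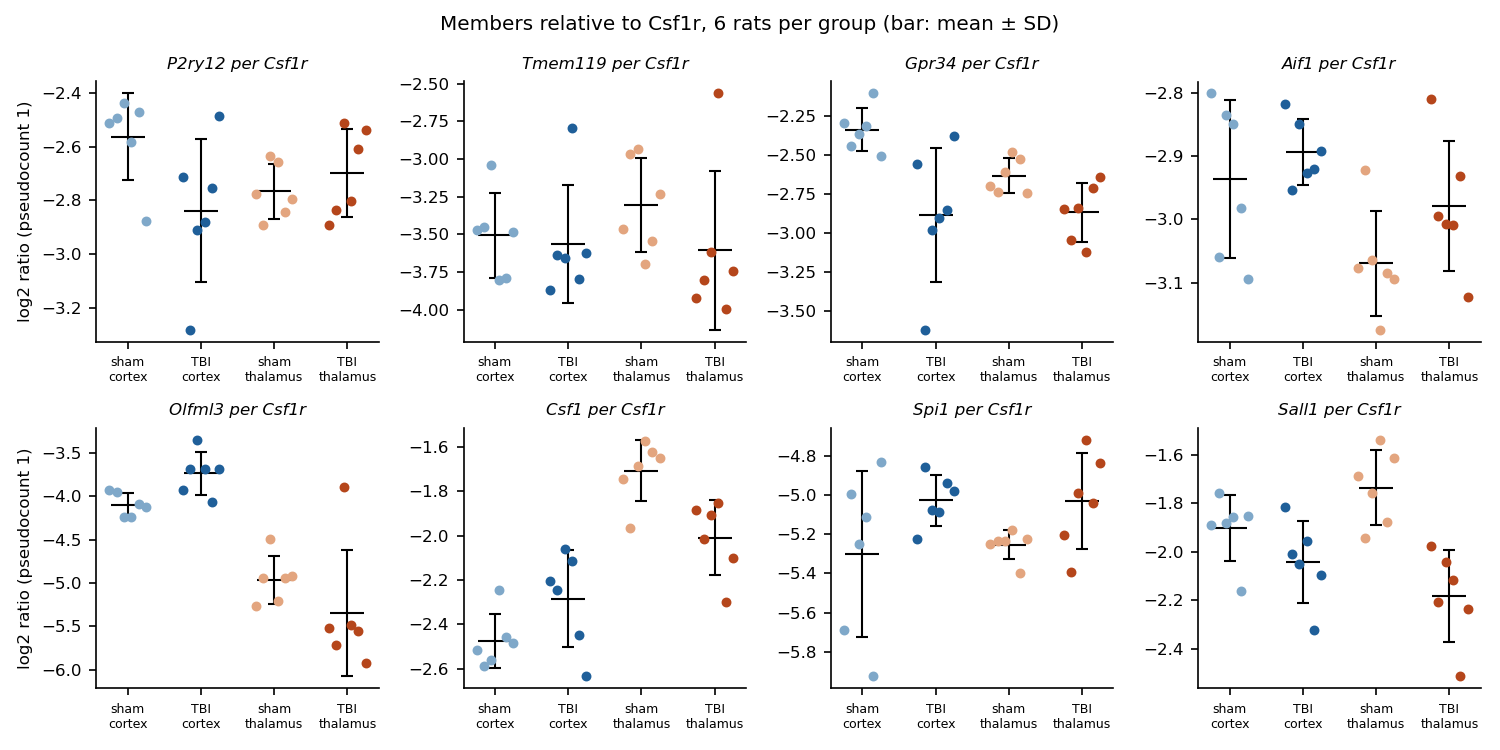
Log2 ratio of each of 8 genes to Csf1r (y axis, pseudocount 1) in the 4 groups, 1 point per rat, black bar mean ± SD of 6 rats. In the thalamus every TBI value of Sall1 per Csf1r lies below every sham value, and in the cortex TBI rat 24 lies lowest for P2ry12 and Gpr34.

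Some rats were highest for several members, whose levels correlate with each other. Rat 63 was the highest TBI thalamus for 6 of 9 members (P2ry12, Csf1r, Sall1, Gpr34, Spi1 and Csf1), and rat 45 the highest TBI cortex for 4 (Csf1r, Aif1, Olfml3 and Csf1). Sham rat 34 was the highest sham animal for 4 members in the cortex and 5 in the thalamus. Rat 63 was also the lowest TBI thalamus for Olfml3 and the lowest TBI cortex for Csf1. The libraries of rats 34 and 45 were choroid plexus-rich in both regions. As a description over the 24 libraries, which share region and injury, the Pearson correlation of log2 levels was 0.98 between Aif1 and Csf1r and 0.95 between Csf1 and Sall1, whereas Olfml3 had the lowest values, from -0.04 with Csf1 to 0.29 with Aif1. With the members themselves left out of the ranking, the 2 loci most like each member over all 24 libraries were Cx3cr1 (0.95), the fractalkine receptor gene, and P2ry13 (0.94) for P2ry12, Selplg (0.90) and Eml3 (0.88) for Tmem119, and RGD1566344 (0.91) and Il33 (0.90) for Gpr34, which was closer still to the member P2ry12 (0.93). For Aif1 they were Tmem176b (0.99) and Nckap1l (0.98), for Csf1r Laptm5 and Npc2 (both 0.99), for Csf1 Tep1 and Gusb (both 0.98), and for Sall1 Ankrd13a (0.98) and Bmp2k (0.96). Spi1 was most like Trem2 (0.98) and Apoe (0.97), a microglial lipid receptor and its ligand, and Olfml3 was most like Fbln1 (0.97), a matrix protein gene, and Fcgrt (0.96). The assembled span of P2ry12 held 6 other loci, P2ry13 among them, so fragments could be divided between them. Csf1r also shares its span with Hmgxb3, and Gpr34 with 2 loci, Gpr82 among them. Spi1 shares its span with 3 other loci, its own second locus among them.

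Most genes of a wider list tied to microglia moved the same way. Of 29 tested, 21 were higher in the TBI cortex and 23 in the TBI thalamus and none was lower. The medians were 0.52 and 0.90. Over all loci, 14.3% were called higher in the cortex and 14.5% in the thalamus. Siglec5, Selplg, Adora3, Entpd1 and Crybb1 were called in neither region. Trem2 is also counted in the disease-associated list below, and Tgfbr1 in the TGF-beta list. The largest changes in the cortex were those of Gpr183 (1.38), an oxysterol receptor gene, Lag3 (1.04), Trem2 (0.89) and Cd33 (0.83). Those in the thalamus were Lag3 (2.32), Gpr183 (2.22), Ptprc (1.60), which encodes the leukocyte antigen CD45, and Cd33 (1.38). Lag3 averaged 8.63 normalized counts in sham cortices and 7.66 in sham thalami, below the mean of 10 needed for testing. It entered the tests only through its TBI means of 18.65 and 40.54, so its calls add no separate support. The difference between the regions was called for 11 of the 29 genes, larger in the thalamus for 10 and smaller for Sparc (-0.40, adjusted p = 0.00654, limma). Over all loci, 2.72% were called larger and 4.54% smaller. Sparc, a matrix protein gene, was higher in the TBI cortex (0.52) and not called in the thalamus (0.12).

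Genes of the CSF1 receptor pathway were called in part. Of 22 genes of this list, which leave out Csf1 and Csf1r, 9 were higher and 1 lower in the TBI cortex, and 12 higher and 2 lower in the TBI thalamus, with medians of 0.21 and 0.34. Tyrobp, the DAP12 adaptor gene, led in both (1.01 and 1.43) and is also counted in the disease-associated list below. In the cortex the phosphatase gene Ptpn6 (0.84) and the adaptor gene Dok1 (0.65) were also higher, as were in the thalamus Pik3cg (1.21), Ptpn6 (1.19) and the kinase gene Syk (1.15). Those called lower were Sos1 in the cortex (-0.16) and Src (-0.39) and Grb2 (-0.16) in the thalamus, which are expressed in most cell types. The interaction was called for 4 of the 22, larger in the thalamus for Inpp5d, Syk and Pik3cg and smaller for Src. Among all loci, 2.72% were called larger and 4.54% smaller. Inpp5d, the gene of the inositol phosphatase SHIP1, went from 587 ± 78.0 to 1156 ± 118 normalized counts in the thalamus (SD, n = 6) and from 2012 ± 141 to 1874 ± 106 in the cortex, with a difference between the regions of 1.08 (adjusted p = 7.79e-07, limma).

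Among 19 microglial transcription factor genes besides Spi1 and Sall1, 7 were higher and 3 lower in the TBI cortex and 10 higher and 4 lower in the TBI thalamus, with medians of 0.11 and 0.19. The cortical background was 14.3% of loci higher and 14.9% lower, and the thalamic one 14.5% higher and 20.9% lower, so the share of these genes called lower was close to that of all loci. Irf8 (0.88 and 1.47), Cebpa (0.57 and 1.38) and Ikzf1 (0.49 and 1.18), which act in myeloid development, were higher in both. Those called lower were Egr1 (-0.67), Etv5 (-0.44) and Mef2c (-0.28) in the cortex and Runx1 (-0.94), Etv5 (-0.71), Bhlhe40 (-0.45) and Mef2c (-0.41) in the thalamus. Several of these are also expressed in neurons, and 11 of 15 neuronal markers were lower in the TBI cortex and 13 of 15 in the TBI thalamus. The part of neurons in these changes, or of their lower markers in the relative levels of the members, was not tested.

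The TGF-beta genes that sustain the resting profile were higher for 7 of 12 and lower for 1 in the cortex (Itgav, an integrin gene, -0.31) and higher for 4 and lower for none in the thalamus, with medians of 0.35 and 0.32. For this list and the next, the shares of all loci called higher were 14.3% in the cortex and 14.5% in the thalamus. Those called lower were 14.9% and 20.9%. The ligand gene Tgfb1 (0.49 and 1.16), Nrros (0.65 and 1.03), whose product presents latent TGF-beta on microglia, and the receptor genes Tgfbr1 (0.39 and 0.99) and Tgfbr2 (0.50 and 0.64) were higher in both regions, and Lrrc32 (0.56) in the cortex. Genes of the disease-associated state were higher for 17 of 19 in the cortex and 18 of 19 in the thalamus and lower for none, with medians of 0.80 and 0.96. The largest were Spp1 (3.82), Lgals3 (3.29), Clec7a (3.10) and Gpnmb (2.68) in the cortex and Clec7a (5.51), Gpnmb (3.34), Spp1 (3.11) and Cd68 (2.77) in the thalamus, which encode osteopontin, galectin-3, a beta-glucan receptor, a lysosomal glycoprotein and a lysosomal marker of activated macrophages. Clec7a went from 9.88 ± 2.28 to 507 ± 166 normalized counts in the thalamus. Its sham mean there was below the mean of 10 needed for testing. So were the sham means of Itgax, 6.09 in the cortex and 4.78 in the thalamus. Clec7a in the thalamus and Itgax in both regions reached the mean of 10 only through the TBI group, so those calls add no separate support. Both genes are included in the counts of this list.

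**Figure D5:**
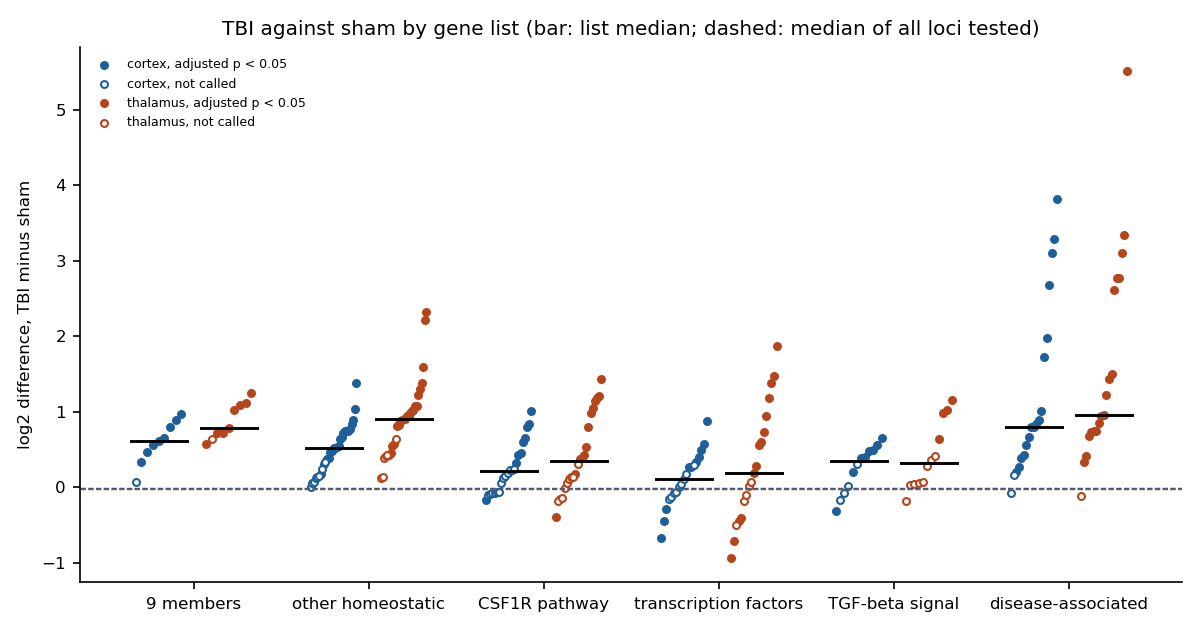
Log2 difference, TBI minus sham, of every tested gene of 6 lists (y axis), cortex in blue and thalamus in orange, filled where the adjusted p was below 0.05. Black bars are list medians (0.61 and 0.79 for the 9 members, 0.80 and 0.96 for the disease-associated genes) and dashed lines are the medians of all loci tested.

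Markers of other myeloid and lymphoid cells, some of which also express Csf1r, Aif1 or Spi1, were higher in part. For comparison with this and the other cell types below, 14.3% of all loci were called higher in the cortex and 14.5% in the thalamus. Of 7 monocyte and neutrophil markers tested, 4 were higher in the TBI cortex and 3 in the TBI thalamus and none was lower, led by Cd44 (2.08 and 1.80) and Itgal (1.09 and 1.94), both of which lymphocytes and glia can also express. The summed level of the whole list of 13 was 2246 to 2657 in sham and 3445 to 5736 in TBI cortices, and 2396 to 2920 in sham and 4070 to 6639 in TBI thalami, so the groups did not overlap. Among its tested genes the highest means were those of Lyz2, Vcan and Cd44. Lyz2, called higher in both regions (0.78 and 1.72), had means of 921.5 in sham and 1639 in TBI cortices. Its thalamic means were 553.9 in sham and 1839 in TBI rats. S100a9, Ccl24 and Vcan were called in neither region, and Plac8 only in the cortex. Vcan is also in the oligodendrocyte precursor list. The neutrophil granule genes Elane and Ngp were at or below 3 fragments in every library, as was the border macrophage gene Cd209b. Of the lymphocyte markers, 1 of 5 tested was higher in the cortex and 2 of 3 in the thalamus, with list sums of 818 to 1042 in sham and 1416 to 1734 in TBI cortices and of 779 to 1152 and 2613 to 4274 in the thalamus. Most of these sums was Cd4, which was higher in both regions (0.78 and 1.78), with means of 789 in sham and 1359 in TBI cortices and of 862 in sham and 2983 in TBI thalami. Cd3e, Cd2, Cd8a and Lck were not called in the cortex, nor was Lck in the thalamus. In the thalamus Cd3e, Cd2 and Cd8a were below the mean needed for testing. Cd8b, called higher there, stood at 20.7 ± 9.78 normalized counts in TBI and 0.165 ± 0.404 in sham thalami (SD, n = 6). It reached the mean of 10 needed for testing only through the TBI group, so its call adds no separate support. Rat microglia and macrophages can express Cd4. The part of these cells in the level of the members was not tested. Among markers of other cell types, those of astrocytes were higher for 6 of 11 in each region, led by Gfap (2.26 in both) and Vim (1.47 and 1.28). Slc1a2 was lower in the cortex (-0.21). Endothelial markers were higher for 1 and 4 of 10, led by Cdh5 in the cortex (0.38) and Emcn in the thalamus (0.48). The cortical share was not above that of all loci. Of the oligodendrocyte and precursor markers, Mag, Cnp, Cldn11, Myrf, Pdgfra, Cspg4, Gpr17 and Sox10 were called higher in the cortex. The rest were not called there. In the thalamus only Cspg4 (0.31) of these lists was called, a share not above that of all loci.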

How the data were processed

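Messenger RNA was sequenced from 24 samples, the perilesional cortex and ipsilateral thalamus of 6 TBI and 6 sham rats, and groups were taken from the sample labels. According to the study's methods and the submitters' processing notes, the authors aligned reads with TopHat2 (2.0.11) and Bowtie2 (2.2.2), assembled loci with Cufflinks (2.2.1) and used Cuffdiff, and the named builds differ (RGSC3.4 genome with Rnor_5.0 annotation, or Rnor_5.0). The counting tool's strand setting is not given in the sources used here. The deposited table holds a signal for each of 42334 loci, namely the assigned fragments scaled by a factor for the library. Small values fell on an even grid in all libraries (100% within 0.1 fragment of a whole number), so fragments could be recovered. Loci without a gene name held 1.90% to 2.23% of the signal of a library and were left out of the tests. The precision of a level is set by these fragment counts and, above all, by 6 rats per group.

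Named loci with a mean of at least 10 were tested on log2(normalized count + 1) with limma (3.58.1, R 4.3.3) and a mean trend, with Benjamini-Hochberg adjustment over all loci tested. TBI was compared with sham within each region, regions within each injury state, and the injury effects by an interaction over all libraries. Ratios to Csf1r were compared by two-sided exact permutation tests (scipy 1.17.1). Thalamus and cortex of 1 number come from the same rat, and the deviations of the 2 regions correlated with a median r of 0.19 (over 0.1 in 10 of 12 rats) against -0.01 between different rats, so the rat was used as a block in an alternative. Other alternatives were TMM and upper quartile scaling, other filters, pseudocounts and thresholds, joint fits, summed loci, leaving out each rat and edgeR (4.0.16) on the recovered fragments. For TBI against sham, edgeR called 4435 cortical and 5122 thalamic loci, against 4531 and 5516 with limma. The methods were tested on simulated data.

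All 9 members are named throughout. Of each microglial list, up to 4 called genes with the largest change per region and up to 3 called against the list's median are named, with the 2 loci most like each member, the 2 largest changes of other cell types' lists and genes of counts of 5 or fewer. Some genes that this rule names, and 1 denominator planned for the ratios, are not reported here, and the counts over the lists include those genes. Members and lists were chosen with earlier results of these data known. Fcrls, Smad3, Ccr2, Fn1, Cd79a, Mbp and Neurod2 were not analysed here.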

Additional observations from a re-analysis of the deposited data

Results flagged for a closer look

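Some single libraries stood apart from their group by Dixon's test, which flags about 5% of groups by chance. Of 36 sets of 6 rats (9 members in 4 groups), 5 were singled out. They were TBI rat 52 for Tmem119 in both regions (838 normalized counts in the cortex and 1597 in the thalamus), sham cortex rat 50 for Sall1, where it was lowest (952), and for Gpr34, where it was highest (989.7), and TBI thalamus rat 45 for Olfml3 (699).

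The injury effect differed between thalamus and cortex by the limma interaction test for 4 members. The log2 excess in the thalamus was 0.75 for P2ry12, 0.41 for Csf1r, 0.72 for Gpr34 and 0.46 for Aif1. Among the alternatives other than the stricter threshold, Csf1r was called in 22 of 22, P2ry12 and Aif1 in 21 and Gpr34 in 17.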

How the results depend on the processing

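In TBI against sham, 8 members were called in the cortex and 6 to 8 under the alternatives, and 8 in the thalamus and 7 to 9 under the alternatives. The injury effect differed between regions for 4 members. This count was 2 at a threshold of 0.01 (P2ry12 and Csf1r), 3 or 4 with single rats left out, where Gpr34 was the one lost (without sham rats 38, 50 or 55 or TBI rat 56), 4 with the rat as a replicate block, and 1 without the choroid plexus-rich libraries (6 fewer samples), an alternative chosen after seeing the data. Regional calls numbered 5 in sham rats (4 to 7) and 9 in TBI rats (8 or 9), and the paired fit with the replicate block gave 6 and 9. Ratios to Csf1r were called for 4 of 16, for 3 with Spi1 as denominator in place of Csf1r, and for 0 to 7 with single libraries left out. With 1 library fewer the exact test has fewer regroupings and a larger smallest p.

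The sign changed where values were near 0. Gpr34 in the cortex was -0.0083 without TBI rat 63 and 0.20 without TBI rat 24, the lowest and highest with a rat left out. The interaction of Csf1 was 0.039 without the choroid plexus-rich libraries. The cortical ratio of Tmem119 was -0.21 to 0.037 with single rats left out, and the thalamic ratio of Spi1 was -0.18 with its loci summed. Of 945 alternative values of single members, 918 kept their direction and their side of the threshold, 17 lost a call, 8 gained one and 2 changed sign.

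Over all loci, calls in the thalamus were 2259 higher and 3257 lower, but 2635 and 2433 with upper quartile scaling and 2822 and 2300 in edgeR, and those of the interaction were 427 and 711, 495 and 558, and 566 and 524. The members' differences were above 0 in both regions under each of these scalings.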
